A study of Homo sapiens with 6 samples.

Results

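Stress-induced secreted factors are described here in 95D cells, a human lung cancer line, as 5 genes named by their symbols among the 59609 gene names of the deposited tables: GDF15, STC1, STC2, ADM2 and INHBE. Cells of wild-type genotype were seeded for 24 h in complete DMEM and then kept for 48 h in glutamine-free DMEM (glutamine deprivation), in glucose-free DMEM (glucose deprivation) or in control DMEM. Both deprived media held 10% dialyzed fetal bovine serum, the control medium was described with 10% fetal bovine serum, and no dialysis is named for it, so the missing nutrient and the serum cannot be told apart in the comparisons with control. The labels describe 6 libraries, 2 in each medium. Of these, 5 entered here: 1 of glutamine deprivation, 2 of glucose deprivation and 2 of control. A single value column of the glutamine table is headed as glucose deprivation replicate 2 and was not used. Nothing in the labels says that replicates came from separate cultures.

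When a cell runs short of amino acids or glucose, or when unfolded protein gathers in the endoplasmic reticulum (ER), kinases phosphorylate the initiation factor eIF2. General translation then falls, while the transcription factor ATF4 is translated more and, with partners such as CHOP (the product of DDIT3) and C/EBP proteins, switches on genes of amino acid supply and of secreted signals. GDF15 is a distant member of the transforming growth factor beta superfamily that lowers food intake through the receptor GFRAL and its partner RET in the hindbrain. INHBE encodes the beta E subunit of activin E, a ligand of the same superfamily made mainly by liver. STC1 and STC2 encode stanniocalcins, secreted glycoproteins that inhibit the proteases PAPP-A and PAPP-A2. ADM2, also called intermedin, encodes a peptide of the calcitonin family that signals through the receptor CALCRL with its RAMP partners.

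In glutamine deprivation and in glucose deprivation STC2, ADM2 and INHBE stood above both control libraries. GDF15 did so too, on at most 26 inferred reads a library. How many of all genes separate in this way was not counted. Of all tested genes, 24.7% were called higher without glutamine and 26.6% without glucose (limma adjusted p under 0.05). STC2 was the abundant transcript of the set, and of the 4 tested members ADM2 differed most between the deprivations. INHBE had the largest ratio to control of the 4 tested members in either deprivation, against a control level that rested on 14 and 9 inferred reads. STC1 did not pass the test in any comparison, and GDF15 stayed under 1 FPKM in every library. FPKM, the unit of all levels below, are fragments normalised to transcript length and to the mapped fragments of the library, here divided by a scaling factor per library.

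The promoter windows of STC2, ADM2 and GDF15 are shown because STC2 rose in both deprivations, ADM2 was higher without glutamine than without glucose and GDF15 stayed near 0. Each is the 250 bases before the start of the RefSeq gene model on GRCh38.p14, from 5′ to 3′ on the strand of the gene. GENCODE 29 starts STC2 and GDF15 farther upstream, so those windows lie inside the GENCODE spans given with their levels, while the ADM2 window lies before its span. STC2 lies on the minus strand (chr5:173328415-173328664), ADM2 on the plus strand (chr22:50481293-50481542) and GDF15 on the plus strand (chr19:18385908-18386157). Capitals mark GCGTG, a core of the hypoxia response element, on either strand, where it reads CACGC on the opposite strand.
STC2: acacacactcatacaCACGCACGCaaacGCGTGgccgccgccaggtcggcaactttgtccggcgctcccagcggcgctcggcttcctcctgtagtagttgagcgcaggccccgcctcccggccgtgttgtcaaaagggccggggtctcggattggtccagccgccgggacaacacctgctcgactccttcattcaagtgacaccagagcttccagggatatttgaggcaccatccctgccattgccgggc
ADM2: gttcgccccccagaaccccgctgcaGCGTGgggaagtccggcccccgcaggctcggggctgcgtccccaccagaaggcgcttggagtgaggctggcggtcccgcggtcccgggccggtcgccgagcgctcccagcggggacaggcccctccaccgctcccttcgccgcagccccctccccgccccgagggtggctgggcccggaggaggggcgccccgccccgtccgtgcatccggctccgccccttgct
GDF15: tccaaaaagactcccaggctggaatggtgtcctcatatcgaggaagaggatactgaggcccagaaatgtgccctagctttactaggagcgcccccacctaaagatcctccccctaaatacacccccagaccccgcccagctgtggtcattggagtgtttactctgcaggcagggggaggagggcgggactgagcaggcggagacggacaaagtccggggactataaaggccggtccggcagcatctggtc
The STC2 window held 3 matches to GCGTG, starting at -235, -231 and -222 bases from the gene start, of which the first and the next share a base. The ADM2 window held 1 match, at -225, and the GDF15 window held 0. GCGTG occurred on either strand in 32.2% of all 35116 RefSeq windows of that length. The other hypoxia core searched, ACGTG, occurred in 18.5% of windows, and the core of the C/EBP-ATF composite element, TGATGNAA with any base at N, in 3.14%. Neither of these was found in the 3 windows shown. The windows were 63.6% (STC2), 78.8% (ADM2) and 58.4% (GDF15) G or C, against a median of 58.0% over all windows.

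Depth was inferred from the values, since single-exon genes of 1 to 20 reads fall on steps of whole reads. It came to 34600000 reads for glutamine deprivation, 36840000 and 35050000 reads for glucose deprivation and 35510000 and 48950000 reads for control. The test took the 16598 genes whose scaled level reached 1 FPKM anywhere, and 4 of the 5 members were among them. INHBE passed only through deprived libraries, and ADM2 and STC1 only through the glutamine-deprived one. A count over the tested members is therefore no evidence about the set. Of all genes tested, 51.1% were called in glutamine deprivation (24.7% higher and 26.4% lower), 54.9% in glucose deprivation (26.6% higher and 28.3% lower) and 44.6% in glutamine against glucose deprivation (22.5% higher and 22.1% lower), at an adjusted p under 0.05 (limma). The keratin gene KRT18 stood at 16.9 FPKM without glutamine, 17.5 ± 2.25 FPKM without glucose and 21.3 ± 0.546 FPKM in control (SD, n = 2 each), and VIM, the gene of the mesenchymal filament vimentin, at 85.1, 143 ± 10.8 and 77.0 ± 1.06 FPKM in the same media. Of 5 tested epithelial and mesenchymal markers, 1 was called higher (FN1) and 1 lower (KRT18) without glutamine, and 3 higher (VIM, KRT8 and FN1) and 1 lower (KRT18) without glucose. Scaling to the library total gave 2 higher and 0 lower without glutamine and 1 higher and 0 lower without glucose. Of all 16935 genes then tested, 5627 were higher and 551 lower without glutamine, and 3735 higher and 1774 lower without glucose. The epithelial adhesion genes EPCAM and CDH1 lay under 1 FPKM throughout and KRT19 was listed at 0. Of 4 lung lineage markers only NKX2-1 reached 1 FPKM, and SFTPB was listed at 0. Markers of blood, endothelium and fibroblasts summed to 2.22 FPKM without glutamine, 1.04 to 1.05 FPKM without glucose and 1.07 to 1.42 FPKM in control, with 1 of 10 reaching 1 FPKM and CD3E listed at 0. In bulk RNA, a change in the share of cells that make a transcript and in its amount per cell cannot be told apart.

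STC2 was the most abundant member in every library. It lies on chromosome 5 from 173314713 to 173329503 on the minus strand (GRCh38, GENCODE release 29) and overlaps no other annotated gene. Its level was 26.7 FPKM in the glutamine-deprived library, 20.6 and 20.2 FPKM in the glucose-deprived libraries and 11.2 and 10.3 FPKM in the control libraries. The groups did not overlap, and every deprived library lay above both controls. In means, 20.4 ± 0.289 FPKM without glucose stood against 10.8 ± 0.622 FPKM in control (SD, n = 2 each), a log2 fold change of 0.86 ± 0.05 (SE, limma adjusted p = 1.17e-05). Without glutamine the log2 fold change against control was 1.23 ± 0.06 (limma adjusted p = 2.34e-05), with the lone library assumed to vary like the other groups. STC2 rested on 2344 to 6117 inferred reads a library, and the ratio of summed reads to control was 2.49 (95% counting interval 2.40 to 2.58) for glutamine deprivation and 1.90 (1.84 to 1.97) for glucose deprivation. Of all genes tested, 247 had a larger log2 fold change in glutamine deprivation and 510 in glucose deprivation. That rank is on the log2(FPKM + 1) scale, which understates the change of low genes and so favours abundant ones such as STC2. The deprivations also differed from each other, with STC2 higher without glutamine than without glucose by 0.37 ± 0.06 on the log2 scale (limma adjusted p = 0.00189). That call was lost when all genes above 0 were tested (limma adjusted p = 0.0511).

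ADM2 lies on chromosome 22 from 50481556 to 50486440 on the plus strand and overlaps no other annotated gene. Its level was 1.77 FPKM in the glutamine-deprived library, 0.606 and 0.598 FPKM in the glucose-deprived libraries and 0.192 and 0.245 FPKM in the control libraries. The groups form 3 separate levels, with glutamine deprivation highest and control lowest. These rested on about 284 inferred reads without glutamine, 97 and 88 without glucose and 28 and 50 in control. The ratio to control of summed reads was 7.93 (95% counting interval 6.16 to 10.3) for glutamine deprivation and 2.70 (2.06 to 3.57) for glucose deprivation. On the log2(FPKM + 1) scale, which understates the change of such low genes, the fold change against control was 1.19 ± 0.13 without glutamine (limma adjusted p = 0.000187) and 0.40 ± 0.10 without glucose (limma adjusted p = 0.0123). With a pseudocount of 0.1 in place of 1 these became 2.56 and 1.15. ADM2 reached 1 FPKM, and so the test, only in the glutamine-deprived library. When that library was left out, ADM2 had no test without glucose, and its difference from control was 0.39 log2. The call without glucose was lost in limma when any of control replicate 1 (adjusted p = 0.0815), control replicate 2 (adjusted p = 0.0547) or glucose deprivation replicate 1 (adjusted p = 0.0542) was left out, and with a variance trend over the mean level (adjusted p = 0.0566). Set against glucose deprivation, ADM2 was higher without glutamine by 0.79 ± 0.13 on the log2 scale (limma adjusted p = 0.00174), the largest such difference among the 4 tested members. Tested genes with a mean under 1 FPKM, 1995 in all, were called higher in 22.9% and lower in 0.652% of cases without glutamine, with a median log2 fold change of 0.35, and in 13.2% and 6.17% of cases without glucose, with a median of 0.15. Those genes include ADM2, INHBE and STC1, and the part of this shift in their values was not tested.

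**Figure D1:**
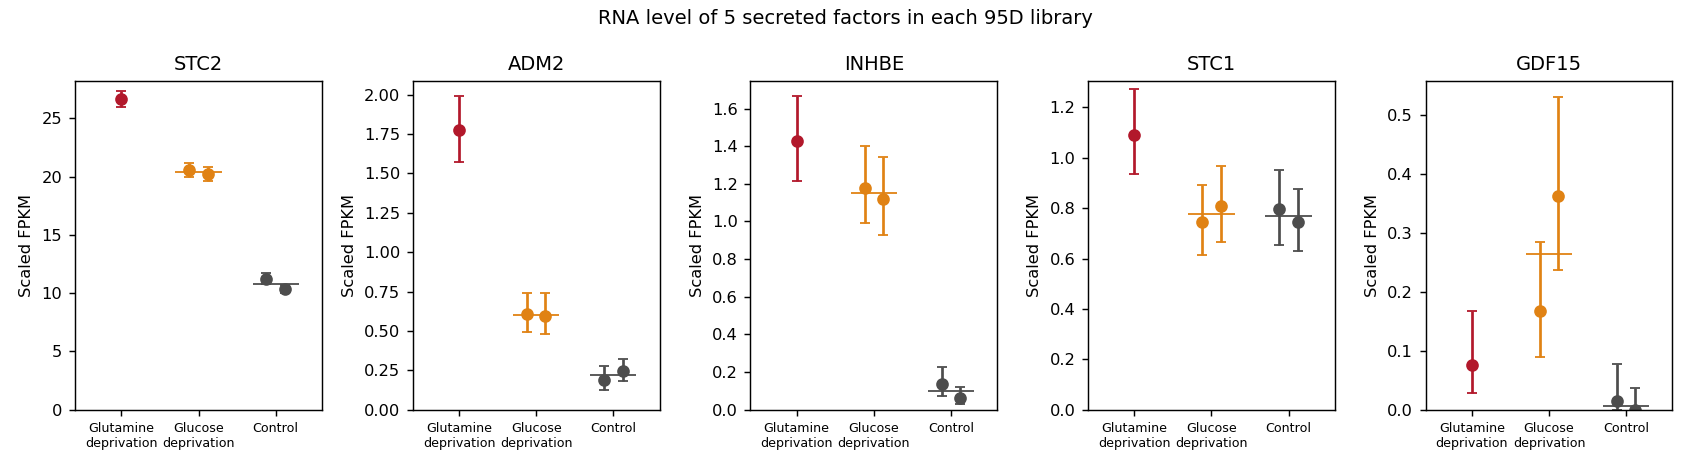
Scaled FPKM of the 5 members (1 panel each, own vertical axis from 0) in each library, with glutamine deprivation left, glucose deprivation in the middle and control right. Points are libraries, bars are 95% Poisson counting intervals of the inferred reads and short lines are group means where there are 2 libraries. STC2, ADM2 and INHBE of every deprived library lie above both controls, STC1 of glucose deprivation overlaps control, and GDF15 stays under 0.4 FPKM.

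INHBE lies on chromosome 12 from 57452323 to 57459280 on the plus strand. Its level was 1.43 FPKM in the glutamine-deprived library, 1.18 and 1.12 FPKM in the glucose-deprived libraries and 0.135 and 0.0622 FPKM in the control libraries. All 3 deprived libraries were close to each other and above both controls. About 161 inferred reads stood behind the value without glutamine, 133 and 116 behind those without glucose, and 14 and 9 behind those of control. The ratio to control of summed reads was 15.3 (95% counting interval 9.82 to 24.8) for glutamine deprivation and 12.3 (8.03 to 19.8) for glucose deprivation. The log2 fold change against control was 1.15 ± 0.14 without glutamine (limma adjusted p = 0.000339) and 0.97 ± 0.11 without glucose (limma adjusted p = 0.000248). With a pseudocount of 0.1 in place of 1 these became 2.97 and 2.68. INHBE reached 1 FPKM, and so the test, only in deprived libraries, so its entry depended on the rise that was tested. When all genes above 0 were tested, the limma adjusted p was 0.0117 without glutamine and 0.0148 without glucose. INHBE did not differ between glutamine and glucose deprivation by this test (0.18 ± 0.14 log2, limma adjusted p = 0.335), and the ratio of reads between them was 1.24, with a 95% counting interval of 1.01 to 1.51.

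Of the tested neighbours of INHBE, DDIT3 was called higher in both deprivations, AC022506.1 only without glucose and MARS1 in neither. The neighbours were chosen after their values were seen, as the protein-coding genes from 25 kb before its start to 65 kb after its end. INHBC, the gene of the related activin beta C subunit, starts 17.6 kb before INHBE and stood at 0.0667 FPKM without glutamine, 0.0388 ± 0.0162 FPKM without glucose and 0.0636 ± 0.0122 FPKM in control. GLI1, a transcription factor of Hedgehog signalling that starts 7.81 kb after the INHBE start, stood at 0.802 FPKM without glutamine, 0.325 ± 0.0105 FPKM without glucose and 0.288 ± 0.0481 FPKM in control. Neither reached the level needed for the test. MARS1, the methionyl-tRNA synthetase gene, was not called without glutamine (0.11 ± 0.07 log2, limma adjusted p = 0.215) and was lower without glucose (-0.26 ± 0.06 log2, limma adjusted p = 0.00593). DDIT3, which lies on the opposite strand with its 3′ end 64.3 kb from the INHBE start and overlaps the end of MARS1, stood at 15.3 FPKM without glutamine, 33.8 ± 0.363 FPKM without glucose and 5.25 ± 0.0698 FPKM in control. The use of strand in the quantification is not given in the sources used here, so reads of DDIT3 and MARS1 in their overlap may be shared. AC022506.1 lies within DDIT3 on the same strand, so their reads may be shared too. It was higher without glucose (1.33 ± 0.41 log2, limma adjusted p = 0.0263) and not called without glutamine (0.05 ± 0.50 log2, limma adjusted p = 0.939). Its control level was 1.68 ± 1.59 FPKM. DDIT3 was lower without glutamine than without glucose (-1.09 ± 0.06 log2, limma adjusted p = 4.34e-05), a comparison in which INHBE was not called.

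**Figure D2:**
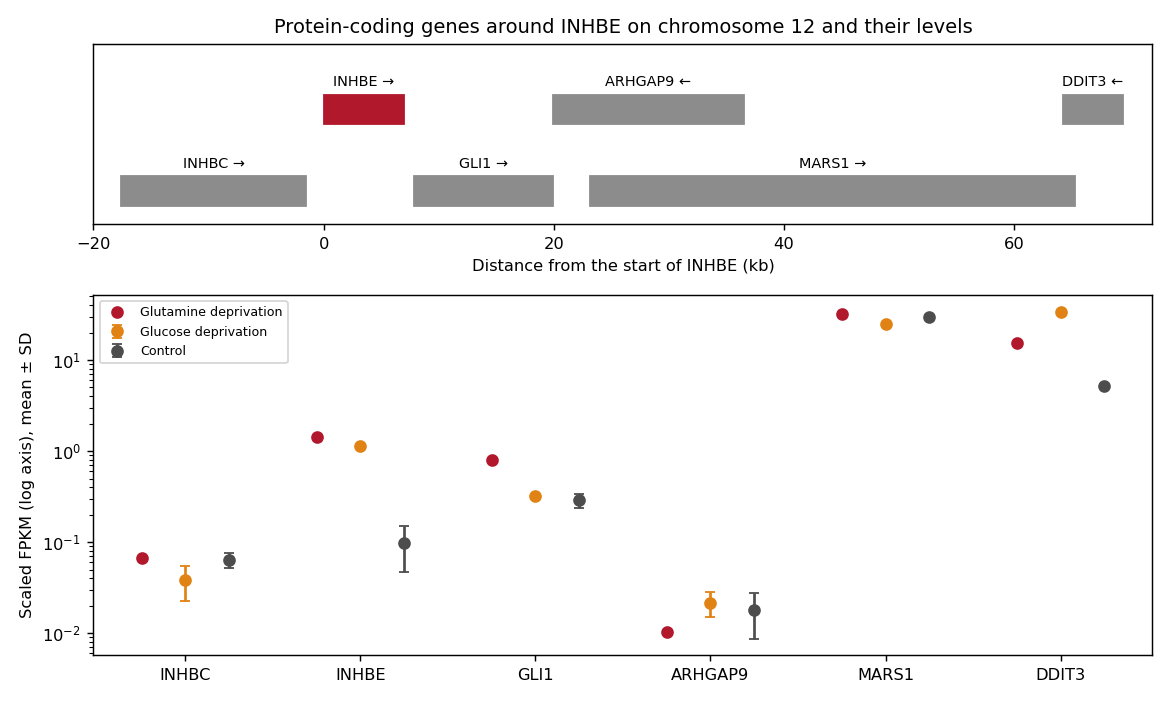
Top, protein-coding genes around INHBE by distance in kb from its start, with arrows for the strand. Bottom, scaled FPKM on a log axis, for glutamine deprivation (left point, 1 library), glucose deprivation (middle) and control (right), the last 2 as mean ± SD of 2 libraries. INHBE and DDIT3 are higher in both deprivations than in control, while INHBC stays under 0.1 FPKM. AC022506.1, which lies within DDIT3, is not drawn.

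STC1, the paralog of STC2, lies on chromosome 8 from 23841915 to 23854807 on the minus strand. It stood at 1.09 FPKM in the glutamine-deprived library, 0.746 and 0.810 FPKM in the glucose-deprived libraries and 0.795 and 0.743 FPKM in the control libraries. Glucose-deprived and control libraries overlapped, and the glutamine-deprived library lay above all 4. The log2 fold change was 0.01 ± 0.10 without glucose (limma adjusted p = 0.957) and 0.24 ± 0.12 without glutamine (limma adjusted p = 0.126). The value without glutamine passed the threshold when the libraries were not scaled (0.32, limma adjusted p = 0.0466) or scaled to the upper quartile (0.33, adjusted p = 0.0472). Counting error alone gave a ratio to control of 1.43 (95% interval 1.17 to 1.74) for glutamine deprivation and 1.01 (0.843 to 1.21) for glucose deprivation. Those intervals leave out the spread between libraries, so they do not replace the test.

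GDF15 was close to the limit of detection. It lies on chromosome 19 from 18374731 to 18389176 on the plus strand, with the microRNA gene MIR3189 inside it, itself listed at 0 in all 5 libraries. Its values fell on whole reads within 0.05: 6 reads without glutamine, 13 and 26 reads without glucose, and 1 and 0 reads in control. In FPKM these were 0.0768 in the glutamine-deprived library, 0.167 and 0.363 in the glucose-deprived libraries and 0.0141 and 0 in the control libraries. The control level of 0 has a floor of 0.0302 FPKM, the value of 3 reads at that depth, and its 95% Poisson interval runs to 0.0372 FPKM. The deprived libraries all lay above both controls, and the glucose-deprived libraries lay above the glutamine-deprived one, the opposite order to STC2 and ADM2. The ratio of summed reads to control was 44.4 for glucose deprivation, but with 1 control read its 95% counting interval ran from 7.52 to 1799. For glutamine deprivation the ratio was 13.1, with an interval from 1.59 to 601. Between the deprivations, the ratio of glutamine to glucose deprivation was 0.294 (0.102 to 0.70), while the glucose-deprived libraries themselves differed by 13 against 26 reads. GDF15 did not reach the level needed for the test. When all genes above 0 were tested, it was not called in glucose deprivation (0.32 log2, limma adjusted p = 0.147), in glutamine deprivation (0.10 log2, limma adjusted p = 0.647) or between them (-0.23 log2, limma adjusted p = 0.321). The log2(FPKM + 1) scale of that test strongly understates changes at so low a level, so the missing calls do not show a lack of change. With a pseudocount of 0.1 the differences were 1.72, 0.73 and -0.99 log2, in the same order and without a test.

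**Figure D3:**
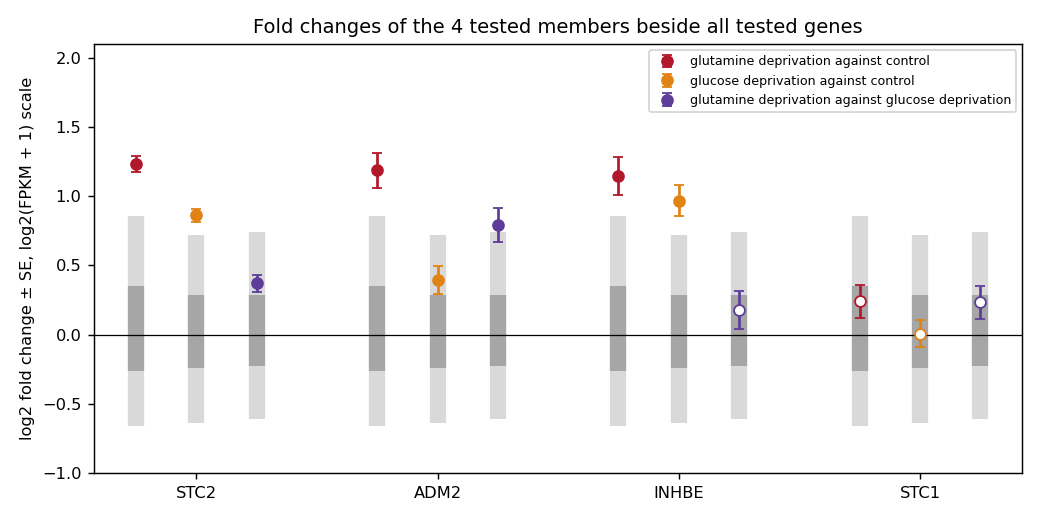
Log2 fold changes with SE (bars) of the 4 tested members on the log2(FPKM + 1) scale, in glutamine deprivation against control (left), glucose deprivation against control (middle) and glutamine against glucose deprivation (right). Filled points have an adjusted p under 0.05 (limma); dark grey bars span the quartiles of all 16598 tested genes and light grey bars a wider range, from -0.66 to 0.86 in glutamine deprivation, -0.64 to 0.72 in glucose deprivation and -0.61 to 0.74 between them. STC2, ADM2 and INHBE lie above the light bar in glutamine deprivation, STC2 and INHBE also in glucose deprivation, and ADM2 in the direct comparison.

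FPKM, being per length, put the members in order within a medium. Without glutamine the order from the top was STC2, ADM2, INHBE, STC1 and GDF15, where the counting intervals of ADM2 and INHBE (1.57 to 1.99 and 1.21 to 1.66 FPKM) and those of INHBE and STC1 (0.936 to 1.27 FPKM for STC1) overlapped. Without glucose it was STC2, INHBE, STC1, ADM2 and GDF15, with overlapping intervals of STC1 and ADM2 in both libraries, and of INHBE and STC1 and of ADM2 and GDF15 in replicate 2. In control it was STC2, STC1, ADM2, INHBE and GDF15, with overlapping intervals of INHBE and GDF15 in both libraries and of ADM2 and INHBE in replicate 1. ADM2 and INHBE thus stood above STC1 without glutamine, INHBE alone without glucose, and neither in control.

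Of the members' 14 listed receptors and binding partners, 8 reached 1 FPKM in at least 1 library. GFRAL, the receptor of GDF15, was listed at 0 in all 5 libraries, and its partner RET stood at 1.02 FPKM without glutamine, 0.607 ± 0.0618 FPKM without glucose and 0.665 ± 0.0165 FPKM in control. CALCRL, the receptor of ADM2, stayed under the filter at 0.263 FPKM without glutamine, 0.147 ± 0.0103 FPKM without glucose and 0.287 ± 0.0195 FPKM in control. Of its partners, RAMP1 had 5.68 FPKM without glutamine, 4.49 ± 0.230 FPKM without glucose and 6.45 ± 0.838 FPKM in control, lower without glucose (-0.44 ± 0.10 log2, limma adjusted p = 0.00642). RAMP2 was not called in either deprivation, and RAMP3 was listed at 0. The stanniocalcin targets PAPPA and PAPPA2 stayed under 0.05 FPKM in mean in each medium. ACVR1C, which encodes the activin receptor ALK7, stayed under the filter, at 0.195 FPKM without glutamine, 0.111 ± 0.0392 FPKM without glucose and 0.231 ± 0.00790 FPKM in control. The activin receptor gene ACVR2B rose in both deprivations, to 9.23 FPKM without glutamine (0.37 ± 0.05 log2, limma adjusted p = 0.000765) and 10.1 ± 0.105 FPKM without glucose (0.49 ± 0.04 log2, limma adjusted p = 6.28e-05), against 6.94 ± 0.233 FPKM in control. ACVR1B rose by less (0.27 ± 0.06 log2 without glutamine and 0.24 ± 0.05 log2 without glucose), and ACVR2A was not called. BMPR2 rose without glutamine (0.52 ± 0.06 log2, limma adjusted p = 0.000186), and the coreceptor gene TGFBR3 fell without glucose (-0.41 ± 0.04 log2, limma adjusted p = 0.000157). Of 14 listed genes 8 were tested, 3 higher and 0 lower without glutamine and 2 higher and 2 lower without glucose. The shares of all tested genes were 24.7% higher and 26.4% lower without glutamine, and 26.6% and 28.3% without glucose. Medians of the list were 0.15 log2 without glutamine and -0.09 log2 without glucose, against 0.04 and 0.02 for all tested genes. RET, not called against control, entered the test only through the glutamine-deprived library.

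Of 27 other ligands listed from the transforming growth factor beta superfamily, 12 were tested. Without glutamine 6 were higher and 1 lower, with a median log2 fold change of 0.31 against 0.04 for all tested genes, and without glucose 2 were higher and 3 lower, with a median of -0.07 against 0.02. Of all tested genes 24.7% were higher and 26.4% lower without glutamine, and 26.6% and 28.3% without glucose. Under each of the 3 other scalings 9 ligands were higher without glutamine, but more of all tested genes were higher there too. These were 5968 of 16752 genes as deposited and 6146 of 16750 under upper-quartile scaling. Scaling to the library total gave 5627 of 16935. TGFB3, not called against control, entered the test only through the glutamine-deprived library. AMH, the anti-Müllerian hormone gene, had the largest rise of the list without glutamine, at 11.2 FPKM against 4.23 ± 0.154 FPKM in control (1.22 ± 0.12 log2, limma adjusted p = 0.000135), and BMP2 the largest fall, at 14.4 FPKM against 19.3 ± 2.41 FPKM (-0.40 ± 0.10 log2, limma adjusted p = 0.00992). GDF1 led the rises without glucose (0.41 ± 0.09 log2), and GDF11 fell there (-0.43 ± 0.06 log2) but rose without glutamine (0.35 ± 0.07 log2). The calls of BMP2 were lost in both deprivations under upper-quartile scaling (limma adjusted p = 0.0939 without glutamine and 0.0582 without glucose) and under scaling to the library total (0.706 and 0.313).

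Within the calcitonin family, ADM2 and its relative ADM went opposite ways without glutamine. ADM, which encodes adrenomedullin, stood at 3.31 FPKM in the glutamine-deprived library and 6.74 ± 0.689 FPKM in control (-0.84 ± 0.10 log2, limma adjusted p = 0.000348), and at 7.54 ± 0.657 FPKM without glucose, where it was not called (0.14 ± 0.08 log2, limma adjusted p = 0.179). CALCB was called higher without glucose (0.40 ± 0.12 log2, limma adjusted p = 0.0212), but reached 1 FPKM, and so the test, only in the glucose-deprived libraries. In glucose deprivation ADM5 fell (-0.33 ± 0.12 log2, limma adjusted p = 0.0453). The ADM5 call was lost under each of the 3 other scalings. PAM, the enzyme that amidates such peptides, was not called in either deprivation.

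Of 5 tested genes that limit activin and bone morphogenetic protein signals, 0 were higher and 1 lower without glutamine, and 2 were higher and 3 lower without glucose. Among all tested genes 24.7% were higher and 26.4% lower without glutamine, and 26.6% and 28.3% without glucose. In glutamine against glucose deprivation, where 44.6% of all tested genes were called, 3 were higher and 2 lower, and the call of FSTL1 was lost under scaling to the library total (limma adjusted p = 0.351). FSTL3, a secreted protein that binds activins, stood at 5.06 ± 0.976 FPKM without glucose and 2.15 ± 0.139 FPKM in control (0.94 ± 0.11 log2, limma adjusted p = 0.000254). BAMBI, a decoy receptor, stood at 2.86 ± 0.228 FPKM without glucose and 8.21 ± 0.844 FPKM in control (-1.25 ± 0.08 log2, limma adjusted p = 2.08e-05), and the inhibitory SMAD gene SMAD6 at 3.23 ± 0.185 FPKM and 8.84 ± 0.303 FPKM (-1.22 ± 0.05 log2, limma adjusted p = 4.6e-06). Among proprotein convertases, enzymes that cut secreted precursors, FURIN was higher without glutamine (0.47 ± 0.06 log2, limma adjusted p = 0.000541) and lower without glucose (-0.28 ± 0.05 log2, limma adjusted p = 0.00215), the second of which was lost under scaling to the library total. PCSK4 was called higher without glucose (0.58 ± 0.12 log2), but entered the test only through glucose deprivation replicate 2, at 1.05 FPKM. In all, 3 of 6 tested convertases were higher and 0 lower without glutamine, against 24.7% and 26.4% of all tested genes. Without glucose 1 (PCSK4) was higher and 1 lower, against 26.6% and 28.3%. Medians were 0.21 log2 without glutamine and 0.08 log2 without glucose, against 0.04 and 0.02 for all tested genes. The counts moved with the scaling, to 4 to 6 higher without glutamine under the 3 other scalings and to 4 higher without glucose under upper-quartile scaling. Counts over all tested genes moved too. Without glutamine 5968 of 16752 were higher as deposited and 6146 of 16750 under upper-quartile scaling. Scaling to the library total gave 5627 of 16935. Without glucose 5490 of 16750 were higher under upper-quartile scaling.

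Most other secreted factors known from stressed cells were not tested, as 25 of 33 listed genes, among them the inflammatory cytokine gene IL6, stayed under 1 FPKM in every library. FGF21, a fasting hormone named after its values were seen, stood at 0.178 FPKM without glutamine, 0.172 ± 0.121 FPKM without glucose and 0.0156 ± 0.0220 FPKM in control. Of the 8 tested, 2 were higher and 3 lower without glutamine, against 24.7% and 26.4% of all tested genes. Without glucose 5 were higher and 2 lower, against 26.6% and 28.3%. CDNF, called higher in both deprivations, reached 1 FPKM, and so the test, only in deprived libraries. Medians were -0.03 log2 without glutamine and 0.26 log2 without glucose, against 0.04 and 0.02 for all tested genes. The first of these medians was above 0 under the 3 other scalings (0.08 to 0.18), where the median of all tested genes was also higher (0.17 to 0.30). VEGFA, the angiogenic growth factor gene, rose in both, to 6.10 FPKM without glutamine (0.59 ± 0.06 log2, limma adjusted p = 0.000116) and 7.51 ± 0.284 FPKM without glucose (0.86 ± 0.05 log2, limma adjusted p = 9.98e-06), against 3.70 ± 0.109 FPKM in control. MANF, a secreted ER stress protein, stood at 13.2 FPKM without glutamine and 46.4 ± 1.46 FPKM without glucose, against 24.5 ± 0.486 FPKM in control, so that it fell without glutamine (-0.85 ± 0.06 log2) and rose without glucose (0.90 ± 0.05 log2). SDF2L1, an ER protein, fell without glutamine (-0.92 ± 0.09 log2, limma adjusted p = 0.000112), and METRNL fell without glucose (-0.39 ± 0.09 log2, limma adjusted p = 0.00838). No gene of these 7 lists called against control changed sign there under the 3 other scalings, but scaling to the library total lost 6 of their 36 calls without glutamine and 15 of 40 without glucose. Of the calls whose values are given here, those lost were BMP2, BAMBI and HIF1A without glutamine and BMP2, GDF11, TGFBR3, ACVR1B, ADM5, FURIN, METRNL, HIF1A and EPAS1 without glucose.

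**Figure D4:**
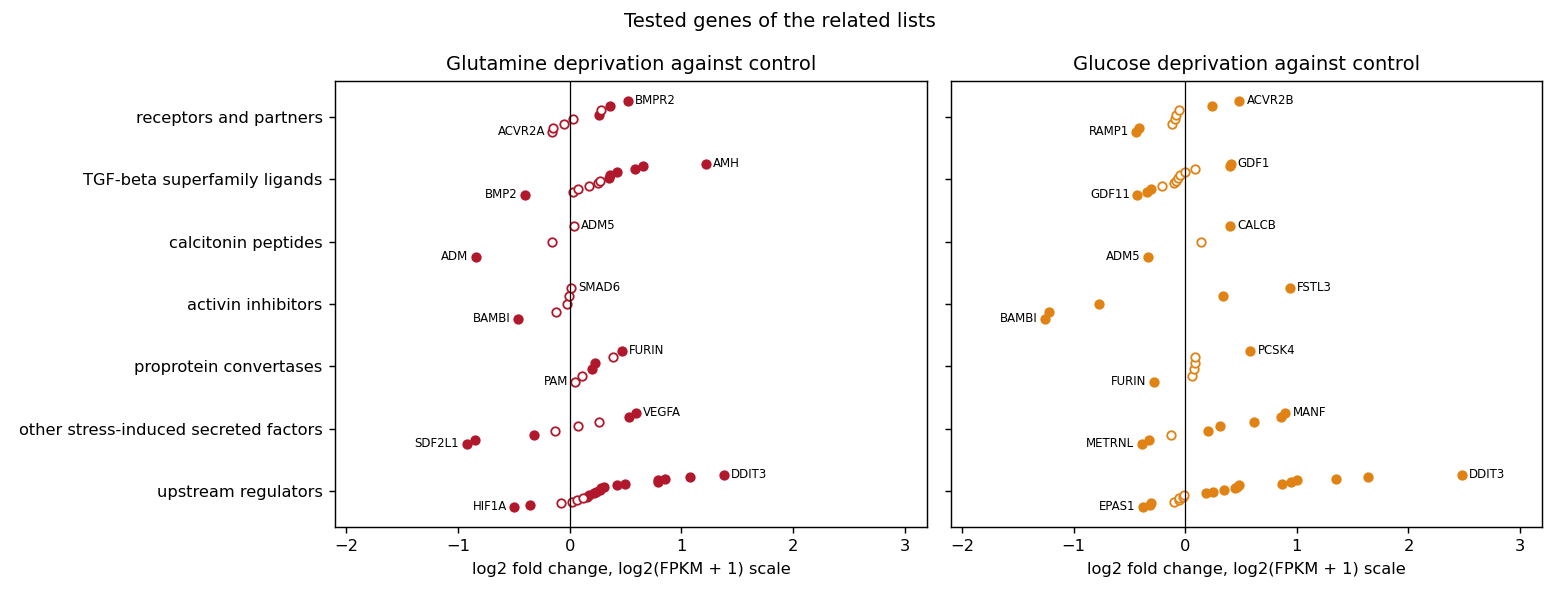
Log2 fold changes of the tested genes of 7 related lists on the log2(FPKM + 1) scale, in glutamine deprivation against control (left) and glucose deprivation against control (right). Each point is a gene, filled where its adjusted p is under 0.05 (limma), and the lowest and highest gene of each list is named. Activin inhibitors spread from -1.25 to 0.94 without glucose and lie near 0 without glutamine apart from BAMBI.

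Of 20 tested regulators upstream of such factors, 14 were higher and 2 lower without glutamine and 12 were higher and 3 lower without glucose, with medians of 0.26 and 0.30 log2 against 0.04 and 0.02 for all tested genes, of which 24.7% were higher and 26.4% lower without glutamine, and 26.6% and 28.3% without glucose. Scaling to the library total gave 13 higher and 0 lower without glutamine and 10 higher and 0 lower without glucose, of 21 then tested. Few genes of any kind were lower under that scaling. Of all 16935 genes then tested, 5627 were higher and 551 lower without glutamine, and 3735 higher and 1774 lower without glucose. NUPR1, called higher in both deprivations in the reported fit, reached 1 FPKM, and so the test, only in deprived libraries. DDIT3 had the largest rise of the list in both, and HIF1A fell in both (-0.49 ± 0.05 log2 without glutamine and -0.31 ± 0.04 log2 without glucose), calls that were lost under scaling to the library total. EPAS1, the gene of HIF-2 alpha, rose without glutamine (0.42 ± 0.06 log2) and fell without glucose (-0.38 ± 0.05 log2). The genes whose centred log2 profile over the 5 libraries lay closest to a member were FAM95C, R3HDM2 and PTPN23 for STC2 (root mean square differences of 0.0338, 0.0537 and 0.0637 log2), IQSEC1, AC138393.1 and HCFC1 for ADM2 (0.0238, 0.0329 and 0.0390) and CEBPB, H3P31 and PTPN23 for INHBE (0.0574, 0.0679 and 0.0720). CEBPB encodes the transcription factor C/EBP beta and stood at 13.5 FPKM without glutamine, 12.5 and 12.1 FPKM without glucose and 5.74 and 6.06 FPKM in control. Profiles were compared on the scale of the reported fit, which understates the change of low genes such as ADM2 and INHBE. Ratios of summed reads to control were 15.3 without glutamine and 12.3 without glucose for INHBE, and 7.93 and 2.70 for ADM2. A close profile on that scale therefore does not mean a like ratio to control, and likeness in ratio was not tested. For STC1 the closest were AGPAT1, TERF2 and TOX3 (0.0153, 0.0169 and 0.0171), but 1735 genes lay within 0.1 log2 of its flat profile, against 23 each for STC2 and INHBE and 50 for ADM2. With 5 libraries this is a description of these values only.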

How the data were processed

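RNA of 95D cells was sequenced (150-base reads). Per the submitters' processing notes, HISAT2 2.0.5 and StringTie were used with hg38; nothing used here names the annotation, the StringTie version or the use of strand. The authors' tables name no unit in their headers. Their fractional values and whole-read steps per exon length were read as FPKM per gene, as deposited. Of 6 labelled libraries 5 were used; 1 value column was headed with a sample of another medium and was left out.

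FPKM were divided by trimmed-mean factors (0.960 to 1.08). Genes reaching 1 scaled FPKM in at least 1 library were fitted as log2(FPKM + 1) with limma 3.58.1 (R 4.3.3), with a mean per medium, a variance trend over inferred reads and Benjamini-Hochberg adjustment, two-sided at 0.05; the lone glutamine library was assumed to vary like the others (2 residual degrees of freedom). P-values measure the spread between these libraries, which may be technical. An exact permutation test of 2 against 2 cannot go below p = 0.333. The fit was also run on simulated data with 200 changed genes of at least 1 FPKM in control. That run could not check calls of genes under that level, or data in which as many genes differ as here.

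Inferred reads are FPKM times GENCODE 29 exon length times inferred depth (34600000 to 48950000 reads); single-exon genes of 1 to 20 reads came out whole within 0.05 in 95.1 to 95.7% of values. Intervals (95%, exact Poisson or conditional binomial) and the 3-read floor cover counting error only. Replicate numbers were not taken as pairs (r = -0.02 between the replicate differences of glucose deprivation and control, over 16598 genes).

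Named genes were the 5 members, the receptors, the extremes of each list in either deprivation, and the 3 genes closest to each tested member. Markers and neighbours of INHBE were added. Members and lists were chosen with earlier results of these data known. Promoters are RefSeq sequences, shown for STC2, ADM2 and GDF15. Entries on chromosome 8, where STC1 lies, were left out by choice and not searched. No entry was found for INHBE.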

Additional observations from a re-analysis of the deposited data

How the results depend on the processing

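Under alternative settings 221 values were taken as unchanged. For fold changes this means the same direction and side of the threshold, or a small move where untested. For counts of called genes it means only that the count stayed within a set ratio of the reported one. Of the other values, 5 lost and 2 gained a call, 2 changed sign and 10 moved by more. Scaling to the library total gave 5509 called genes in glucose deprivation (9107 in the reported fit) and 4279 in glutamine against glucose deprivation (7395), and moved the median of all genes to 0.11 and 0.19 log2, and to 0.30 in glutamine deprivation. The share of calls that were higher then was 91.1% in glutamine deprivation, 67.8% in glucose deprivation and 85.5% between them. Leaving out a library gave 5538 to 8452 calls in glutamine deprivation, 5675 to 9076 in glucose deprivation and 5361 to 6198 between them, the lowest without a control library in each. ADM2 in glucose deprivation ranged from 0.36 to 0.43 without a library and was 0.40 with the variance trend over the mean level, with the call lost as reported. STC1 ranged from -0.0191 to 0.0358 there, below 0 without control replicate 2 (-0.0191) or glucose deprivation replicate 2 (-0.0170), and was not called in any. STC1 in glutamine deprivation was 0.32 as deposited and 0.33 with upper-quartile scaling, both called; its limma adjusted p ranged from 0.0466 to 0.292. STC2 between the deprivations was 0.37 with no filter, no longer called. GDF15 with a pseudocount of 0.1 was 0.73 in glutamine deprivation, 1.72 in glucose deprivation and -0.99 between them, and without a library ranged from -0.34 to -0.12 between them. The causes were not tested. The replicate block gave 7578 calls in glutamine deprivation, 8826 in glucose deprivation and 6379 between them, and changed no member's call. With a filter on a mean of 1 FPKM, ADM2, INHBE and STC1 had no test. ADM2 and STC1 also had none when the glutamine-deprived library was left out. Leaving out glutamine deprivation replicate 2 was not run, as that library was not used. Depth limits GDF15 most, at 0 to 26 reads a library.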
